A study of Mus musculus with 2 samples.

Results

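The genes described here build and run the early secretory pathway, from the channel that admits new proteins to the endoplasmic reticulum (ER) to the coats that carry them to the Golgi and back. They were chosen by symbol alone. The pattern took the Sec, Ssr, Srp, Tmed and Pdia genes whose symbols continue with a digit, the Sar1 genes, and the coat genes Arcn1, Copa, Cope, Copb, Copg and Copz. It matched 66 of the 16906 genes in the table, and 61 of these had a mean of at least 1 FPKM over the libraries, the minimum used below. FPKM counts fragments relative to transcript length and to the depth of the library, so levels can be compared between genes. The members under that minimum were Pdia2, Sec1, Sec14l3, Sec14l5 and Sec16b, which lay between 0.03 and 0.27 FPKM. Sec1, which encodes a fucosyltransferase, and the lipid-binding Sec14l genes share only the name with the rest, and 3 of these 6 passed the minimum.

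RNA of luminal cells from the mammary gland of C57BL/6 mice, 8 weeks old, was sequenced as 1 library per group, from about 20000 sorted cells. The Ctrl mice were miR-200c/141-flox/flox. The CKO mice were K8-CreERT2;miR-200c/141-flox/flox, in which the keratin 8 promoter, active in luminal cells, drives a Cre recombinase that tamoxifen switches on. Both genotypes received tamoxifen, and the labels give the time since then as 4 weeks in one place and 3 days in another. Only CKO carried Cre, so Cre itself and the loss of the microRNAs cannot be told apart. The number of mice per library is not given in the sources used here, and the microRNAs themselves were not analysed here, so the deletion was not checked in these data. With 1 library per group no test over samples exists, and every ratio below compares 2 libraries.

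The depth, estimated by way of the deposited p-values, was about 12600000 reads for Ctrl and 11500000 for CKO. The luminal markers were high, with 13 of 13 over the minimum and summed levels of 14284.14 FPKM in Ctrl and 18978.67 in CKO. Krt18 alone made up 6606.79 and 10398.36 FPKM of these sums. The median log2 ratio of CKO over Ctrl in the luminal list was 0.05. Pgr, Prlr, Elf5, Gata3, Foxa1 and Cdh1 were lower in CKO and the other luminal markers higher. Basal myoepithelial markers summed to 160.64 and 293.55 FPKM, myeloid markers to 50.37 and 82.65, and 8 plasma and B cell markers to 92.35 and 87.5, of which Sdc1, also an epithelial gene, made up 89.46 and 85.06. Of the antibody-cell genes proper, Jchain stood at 1.21 and 0.39 FPKM and Mzb1 at 0.21 and 0.48. Fibroblast markers summed to 40.29 and 42.56 FPKM and endothelial markers to 31.43 and 34.15. Dcn made up 25.57 and 30.74 FPKM of the fibroblast sums. Col3a1 was nearly level at 4.13 and 4.24, and Lum, Pdgfra, Col1a2 and Col1a1 were lower in CKO. At least 1.5-fold higher in CKO were 7 of 9 measured basal markers and 4 of 8 listed myeloid markers, with 1 and 0 lower. In bulk RNA, fewer cells of a type and less RNA per cell cannot be told apart, and the part of these other cells in the results below was not tested.

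Proteins bound for secretion or membranes carry a signal sequence that the signal recognition particle (SRP) binds as it leaves the ribosome. The particle docks the ribosome at the Sec61 channel, where the translocon-associated protein (TRAP) complex assists entry and signal peptidase cuts the signal off. Disulfide isomerases then form and correct disulfide bonds. Folded cargo leaves in vesicles coated with COPII, and the COPI coat returns proteins from the Golgi to the ER. Luminal cells use this route for milk proteins and for their own membrane and secreted proteins. One member, Sec23a, is a reported direct target of the miR-200 family.

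The sequences bearing on Sec23a are those of the deleted microRNAs and their matches in its transcript. The mature microRNAs are shown from RefSeq (GRCm38.p6) with the seed, bases 2 to 8, in capitals. The first 2 are made from the deleted cluster on chromosome 6, and the others from a second cluster on chromosome 4 that the design left in place.

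mmu-miR-200c-3p: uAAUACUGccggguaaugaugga

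mmu-miR-141-3p: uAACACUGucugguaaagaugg

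mmu-miR-200b-3p: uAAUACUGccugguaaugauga

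mmu-miR-429-3p: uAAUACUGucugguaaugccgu

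mmu-miR-200a-3p: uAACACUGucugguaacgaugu

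The seed AAUACUG is shared by miR-200c-3p, miR-200b-3p and miR-429-3p, and AACACUG by miR-141-3p and miR-200a-3p. A transcript match to the first reads CAGTATT and to the second CAGTGTT. The 3' UTR of Sec23a, 1614 bases in exon 20 of 20 in the form with the longest 3' UTR (GENCODE M21 on GRCm38), held 3 matches to miR-200c-3p and none to miR-141-3p. They are shown on the strand of the transcript with the match in capitals.

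Sec23a match at UTR base 206: ttgcctgataCAGTATTataattggtt

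Sec23a match at UTR base 773: ttgtgttcttCAGTATTttaacactat

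Sec23a match at UTR base 861: cttactgagaCAGTATTaatataatgt

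On GRCm38 these lie on the minus strand at chr12:58959785-58959791, chr12:58959218-58959224 and chr12:58959130-58959136. The first and the last are followed by A, the base that extends a seed match to its strongest form. Sec23a was the only member with 3 or more miR-200c-3p matches, which 0.513% of the 16172 genes with an annotated 3' UTR held.

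Sec23a, an inner shell subunit of the COPII coat, had a level of 5.54 FPKM in Ctrl and of 5.82 FPKM in CKO. The log2 ratio of CKO over Ctrl was 0.07, computed like all ratios here after adding 0.5 FPKM to each value. Its 95% counting interval of -0.17 to 0.31, from about 287 and 276 reads, held a ratio of 1. Such intervals come from the estimated reads without the added 0.5 FPKM, and they cover the counting of reads only, not the spread between animals. With an interval of this width, a small change of Sec23a in either direction could not be told from a ratio of 1 at this depth. The authors' deposited table gives the gene a p-value of 0.559 in its test of one library against the other. Over the 60 measured genes with 3 or more such matches the median log2 ratio was -0.11, with quartiles of -0.23 and 0.01. That value was not adjusted for transcript length, which went with low ratios in these data.

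Its close relative Sec23b, which fills the same place in the coat, had levels of 30.04 and 30.12 FPKM and a log2 ratio of 0.00 (-0.13 to 0.13). Sec23b was thus 5.42 times as abundant as Sec23a in Ctrl and 5.18 times in CKO. In these luminal libraries Sec23a was the minor of the 2 transcripts, and its level ranked 8416 among all genes in Ctrl.

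Seed matches had about the same frequency among the members and among all genes. A match to either microRNA was found in the 3' UTR of 18 of the 61 measured members (29.5%), against 29.9% of 11442 measured genes with an annotated UTR. For these 18 the median log2 ratio was 0.04, and for the other 43 it was 0.00. The 18 count Srp54a, Srp54b and Srp54c apart, at 0.59, 1.30 and 0.43, although they are near-copies with the same match (below). That raises the median of the 18, which was not computed with the copies summed. The same medians over all genes were -0.08 with a match and -0.01 without. Genes with a match had longer 3' UTRs, with medians of 2317.5 against 828 bases over all genes and 1620 against 680 among members. Long transcripts had lower ratios in these data (below), and these medians were not adjusted for length. Among members with a match the ratio ran from -0.43 for Tmed5 to 1.30 for Srp54b. Sec24a, a cargo-binding COPII subunit, held 1 match to each microRNA in its 3' UTR, and its levels of 7.29 and 6.09 FPKM gave a log2 ratio of -0.24.

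Most members had close to the same level in both libraries. By at least 1.5-fold, 2 of the 61 were higher in CKO, Srp54b and Srp54a, and 0 lower, where the same rule called 2.47% of 11667 measured genes higher and 3.15% lower. By at least 1.2-fold, 5 were higher and 3 lower, against 10.6% and 16.8% of all genes. With ratios centred within 10 bins of transcript length, 4 were higher and 4 lower by 1.2-fold, against 10.8% and 13.2% of all genes. By 1.5-fold 2 were then higher and 1 lower, against 2.3% and 2.89%. Centring on the median of all genes or trimmed-mean scaling gave 7 higher and 3 lower by 1.2-fold, adding Cope and Sec24d. Over all genes the shares were 12.5% and 14.4% with median centring, and 13.1% and 13.9% with trimmed-mean scaling. Within 1.2-fold lay 53 members, or 86.9%, against 72.5% of all genes. The members are expressed above most genes, with a median of 33.56 FPKM in Ctrl against 12.08 for all, and low genes scatter more. Among genes with a mean of 10 FPKM or more, 86.8% of 53 members and 82% of all 6471 genes lay within 1.2-fold. The median log2 ratio of the members was 0.01 and of all measured genes -0.03.

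**Figure D1:**
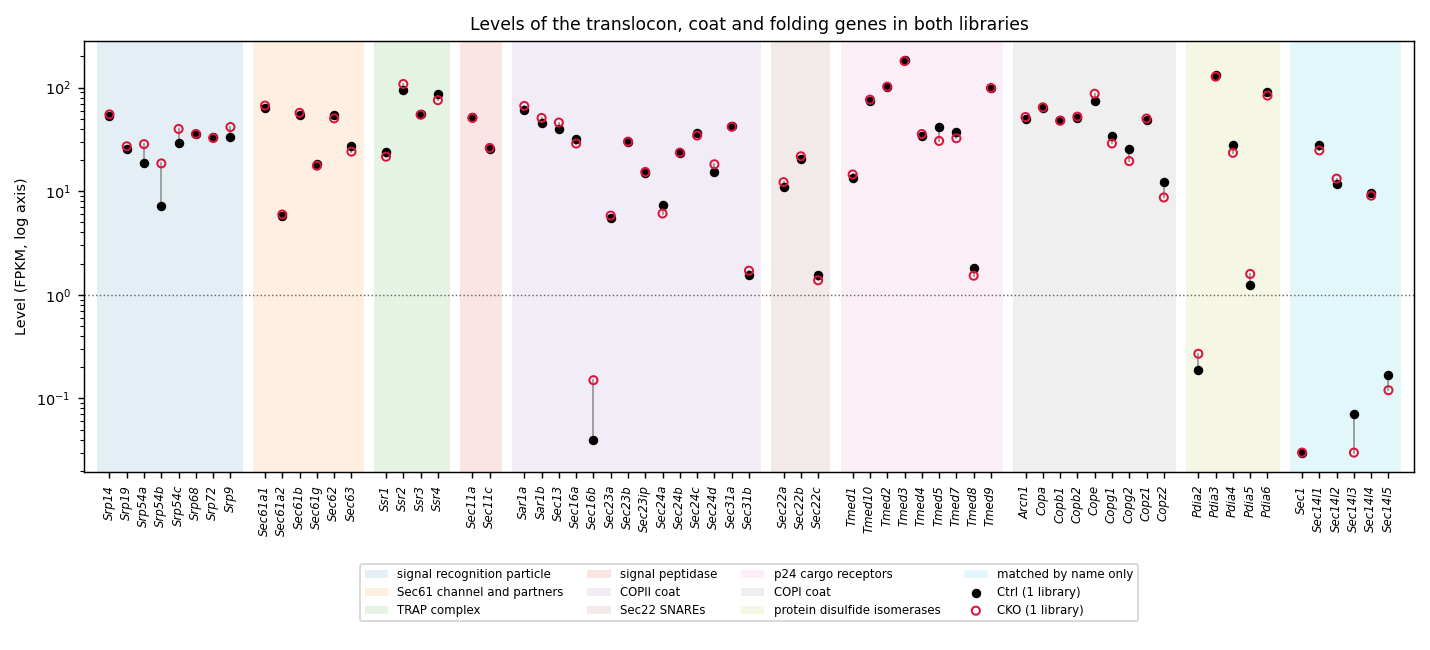
Level of each of the 66 genes in FPKM on a log axis, grouped by role, with Ctrl as filled and CKO as open points (1 library each) and a dotted line at the minimum of 1 FPKM. The points of most genes overlap, Srp54b is set apart by 7.24 against 18.55 FPKM, and 5 genes lie under the line in both libraries.

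The signal recognition particle had the highest median ratio of the role groups when its Srp54 copies were counted apart. Among its 8 genes, 4 reached 1.2-fold toward CKO (Srp54a, Srp54b, Srp54c and Srp9) and 0 toward Ctrl, and the median log2 ratio was 0.19. With the Srp54 copies summed into 1 value the median was 0.055, below the 0.08 of the Sec22 genes. Its signal-binding GTPase subunit, SRP54, is encoded in the mouse by the neighbouring genes Srp54a, Srp54b and Srp54c. Srp54b had 7.24 FPKM in the Ctrl and 18.55 FPKM in the CKO library, 2.46-fold higher, from about 199 and 466 reads, with a log2 interval of 1.11 to 1.60. Srp54a was at 18.74 and 28.49 FPKM, 1.51-fold higher, and Srp54c at 29.51 and 39.9 FPKM, 1.35-fold higher. By the deposited levels every one of the 3 copies was thus higher in the CKO library, and the rarest copy differed the most. The levels of single copies, and the interval of Srp54b, depend on how reads shared between the copies were assigned (below). Srp54b was the only member that the authors' deposited table calls up, a call given there to 0.615% of its genes, and no member is called down.

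These copies cannot be separated well by short reads. Of the 100-base windows of the annotated Srp54b transcripts 98.5% also occurred in Srp54a or Srp54c, against 71.7% for Srp54a and 89.5% for Srp54c, and RSEM, a tool in the submitters' processing notes, divides such shared reads between genes by estimation. The miR-200c-3p match in their 3' UTRs was the same in all 3, at UTR base 772.

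Srp54a, Srp54b and Srp54c match at UTR base 772: tattaggctaCAGTATTacacattaaa

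The copies of this match lie on the plus strand at chr12:55113663-55113669, chr12:55188723-55188729 and chr12:55262990-55262996. The sum of the copies, which depends on that division only through their lengths, was 55.49 FPKM in Ctrl and 86.94 FPKM in CKO. Its log2 ratio was 0.64 (0.54 to 0.72). The other 5 particle genes together were at 181.77 and 192.27 FPKM, a log2 ratio of 0.08 (-0.01 to 0.12). For both sums the ratio is of summed FPKM and the interval of summed reads, in which long transcripts weigh more, so an interval need not centre on its ratio. So transcripts of the SRP54 subunit were higher in the CKO library while the summed transcripts of its partners were nearly level.

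Genes lying between the copies were looked at after these values were seen, and 2 of them were higher in CKO as well. Within 500 kb of them 17 genes were measured, and 3 of these lay between Srp54a and Srp54c without being copies. Fam177a was at 12.39 and 24.05 FPKM and 1700047I17Rik2 at 32.58 and 60.15, log2 ratios of 0.93 and 0.87. Those genes are near-copies of each other as well, with 98.5% of the windows of Fam177a found in 1700047I17Rik2. For Gm2436, the third, levels of 1.78 and 1.18 FPKM gave an interval of -1.66 to 0.43, which held a ratio of 1. The 11 measured genes outside ran from -0.18 to 0.41, with a median of 0.18. A cause for the higher values in this stretch of chromosome 12 was not tested.

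**Figure D2:**
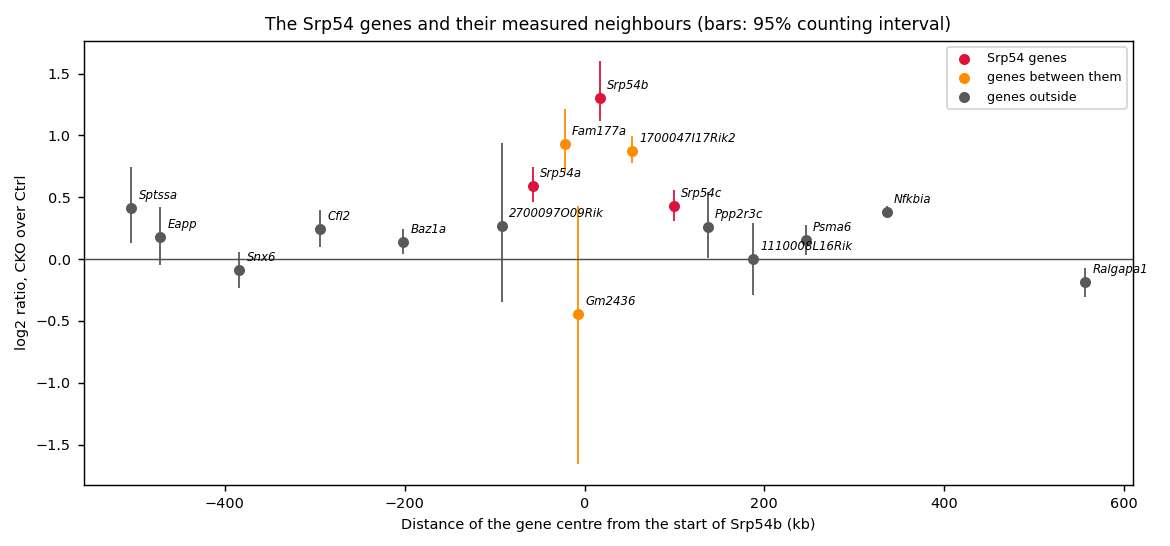
Log2 ratio of CKO over Ctrl for the measured genes within 500 kb of the Srp54 genes, against distance in kb from the start of Srp54b, with 95% counting intervals as bars. The Srp54 genes (red), Fam177a and 1700047I17Rik2 (orange) stand above the 11 genes outside (grey), whose highest value is 0.41, while Gm2436 lies at -0.44.

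The remaining particle genes differed little, with 1 exception. Srp9, which pairs with Srp14 in the domain that pauses translation, had levels of 33.56 and 41.66 FPKM and a log2 ratio of 0.31 (0.15 to 0.47). Srp14 itself was at 53.79 and 55.17 FPKM, a ratio of 0.04. The assembly scaffold pair Srp68 and Srp72 had ratios of 0.00 and -0.02, and Srp19, which helps SRP54 join the particle, had 0.07.

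All 6 genes of the channel group lay within 1.2-fold. The 6 genes of the Sec61 group had log2 ratios from -0.19 to 0.09. Sec61a1, the pore-forming subunit, was at 63.01 and 67.1 FPKM and was 10.8 times as abundant as its relative Sec61a2 in Ctrl and 11.3 times in CKO. The small subunit genes Sec61b and Sec61g were at 54.59 and 57.08 FPKM and at 18.26 and 17.63 FPKM. Sec62 and Sec63, partners that help proteins enter after translation, were at 54.23 and 50.54 FPKM and at 27.51 and 24.12 FPKM. The ratio of Sec63 was -0.19, and its transcript is long, at 6045 bases, a property that went with low ratios in these data.

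The TRAP complex split between its subunits. Ssr2 had levels of 95.34 and 108.4 FPKM and a log2 ratio of 0.18 (0.08 to 0.30), whereas Ssr4 stood at 86.93 and 75.61 FPKM, a ratio of -0.20 (-0.35 to -0.05). The other subunits, Ssr3 and Ssr1, had ratios of -0.04 and -0.13, so the 4 members shared no direction. Sec11a and Sec11c, alternative catalytic subunits of signal peptidase, had ratios of -0.03 and 0.03, with Sec11a 2.03 times as abundant in Ctrl and 1.95 times in CKO.

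Of the 4 measured disulfide isomerases with Pdia symbols, 3 had lower levels in CKO, by less than 1.2-fold. Pdia3, which acts on glycoproteins with calnexin and calreticulin, was the most abundant of them at 133.34 and 127.5 FPKM, followed by Pdia6 at 90.73 and 83.81. Pdia4, an isomerase with an extra active domain, had levels of 27.66 and 23.48 FPKM and a log2 ratio of -0.23 (-0.38 to -0.09). The intervals of these 3 lay below a ratio of 1, which held for 15 members and for 23.7% of all genes. Pdia5 stood just past 1.2-fold toward CKO, at 1.24 and 1.59 FPKM, with about 28 and 33 reads and an interval of -0.41 to 1.15 that held a ratio of 1. Genes of the isomerase family under other names did not share the lower levels. P4hb, at 177.36 and 177.12 FPKM, was above Pdia3 and had a log2 ratio of -0.002. Txndc5, Erp44 and Erp29 had ratios of 0.01, 0.05 and 0.19.

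The COPII coat forms vesicles at ER exit sites and had 0 of 13 measured members past 1.2-fold in either direction on the deposited scale. Sec24d, the nearest, passed that threshold with ratios centred on the median of all genes (0.27), scaled by the trimmed mean (0.28) or centred within length bins (0.32). Its starter GTPases Sar1a and Sar1b were at 61.03 and 66.59 FPKM and at 45.71 and 50.95 FPKM, log2 ratios of 0.12 and 0.15. Sec13, a subunit of the outer cage, was at 40.23 and 46.02 FPKM, a ratio of 0.19, while its partner Sec31a was level at 42.18 and 41.91 FPKM. The exit site scaffold gene Sec16a was at 31.68 and 28.87 FPKM, a ratio of -0.13. Sec23ip, which binds the coat, and Sec31b, the rare relative of Sec31a, had ratios of 0.03 and 0.10.

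The 4 Sec24 genes encode the subunits that pick cargo, and they were the most divided family of the coat. Sec24d had levels of 15.3 and 18.2 FPKM and a log2 ratio of 0.24 (0.11 to 0.40), and Sec24a had the ratio of -0.24 (-0.43 to -0.08) given above. Sec24b and Sec24c, the more abundant forms at 23.38 and 36.32 FPKM in Ctrl, had ratios of 0.01 and -0.07. Sec24c was 2.37 times as abundant as Sec24d in Ctrl and 1.89 times in CKO. On the side of CKO, Pdia5 at 0.26 was the member nearest past 1.2-fold and Sec24d at 0.24 the nearest short of it. On the side of Ctrl these were Copg2 at -0.37 and Sec24a at -0.24.

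The Sec22 proteins belong to the SNARE machinery that fuses vesicles with their targets or resemble it. Sec22b, the established SNARE, was at 20.58 and 21.74 FPKM, and Sec22a at 11.05 and 12.23. Sec22c was rare at 1.56 and 1.38 FPKM. The interval of each of the 3 held a ratio of 1.

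The measured Sec14l genes were not part of this route. Sec14l1, Sec14l2 and Sec14l4 stood at 27.92, 11.87 and 9.69 FPKM in Ctrl and at 24.79, 13.23 and 9.06 FPKM in CKO.

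The p24 family of Tmed genes encodes cargo receptors that cycle between ER and Golgi in both coats, and it held the most abundant member of all. Tmed3 was at 183.36 and 180.32 FPKM, Tmed2 at 101.86 and 102.18, and Tmed9 at 100.19 and 99.09, with log2 ratios between -0.02 and 0.00. Tmed1 was the highest by ratio, at 13.36 and 14.51 FPKM, and Tmed8 was rare at 1.83 and 1.53. Tmed4, Tmed7 and Tmed10 had ratios of 0.07, -0.20 and 0.05. Tmed5 stood apart, with 41.3 FPKM in Ctrl against 30.58 in CKO, a log2 ratio of -0.43. The p-value of Tmed5 in the authors' deposited table, 0.458, corresponds to a log2 read ratio of only -0.04 on the same side. For Tmed5 the levels and the deposited p-value thus give different ratios, and, comparing ratios without the added 0.5 FPKM, Srp54b was the only other measured member for which they differed by more than 0.1, there toward a larger ratio. With Tmed5 taken at its implied value no Tmed gene was 1.2-fold apart.

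The COPI coat was level in most subunits, with the lowest ratios in both gamma subunits and the minor zeta subunit. Copa, the largest subunit, was at 63.61 and 64.58 FPKM, and Arcn1, Copb1, Copb2 and Copz1 had log2 ratios from -0.02 to 0.06. Cope was higher in CKO, at 73.81 and 87.31 FPKM, a ratio of 0.24 (0.11 to 0.37). The gamma subunits went the other way, with Copg1 at 34.15 and 28.89 FPKM and Copg2 at 25.46 and 19.52. Copg2 was 1.30-fold lower in CKO, with a log2 interval of -0.52 to -0.25. Copz2, the minor zeta subunit, was 1.39-fold lower at 12.26 and 8.7 FPKM, from about 145 and 94 reads, with an interval of -0.89 to -0.11. Copz1 was 3.96 times as abundant as Copz2 in Ctrl and 5.78 times in CKO, and for Copg1 over Copg2 these values were 1.34 and 1.48. Pairs such as these shared no 100-base window, unlike the Srp54 copies. Shorter shared stretches were not searched.

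**Figure D3:**
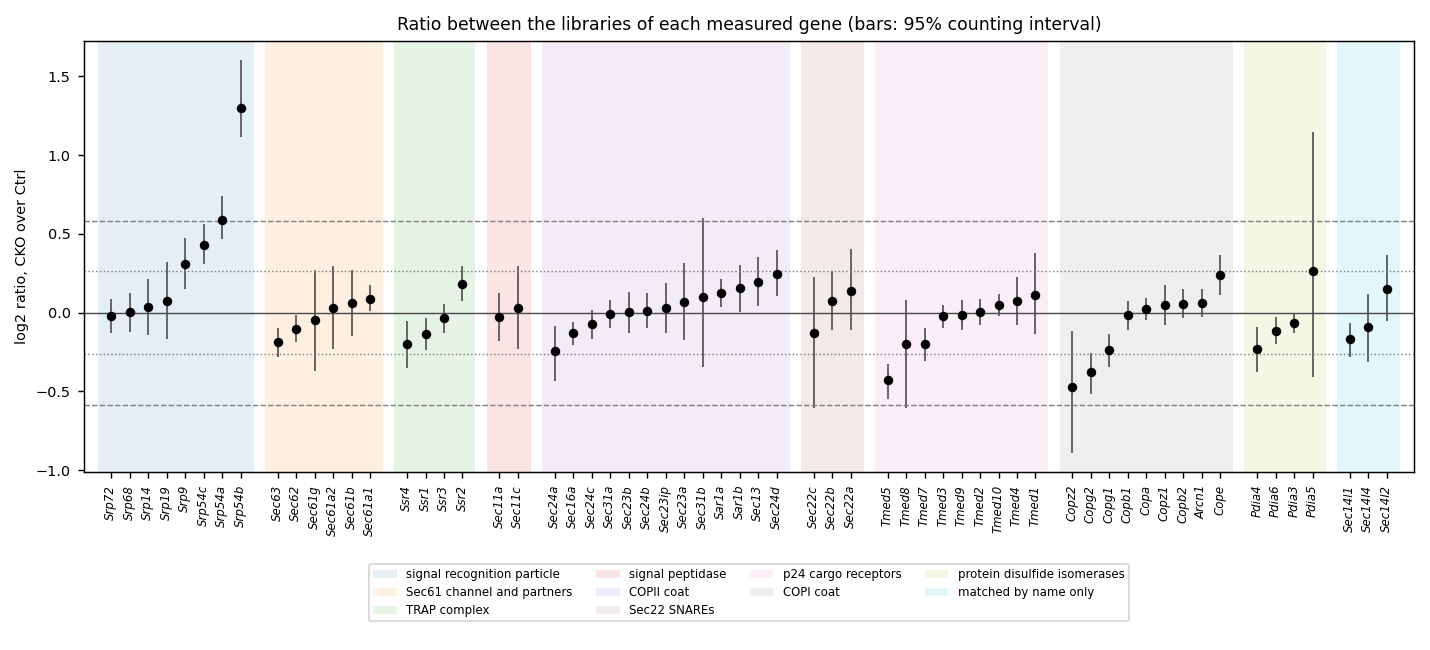
Log2 ratio of CKO over Ctrl (points) with 95% counting interval (bars) of the 61 measured genes, ordered within each role, with lines at 1.2-fold (dotted) and 1.5-fold (dashed). Only Srp54a and Srp54b reach the dashed line, while Copz2, Tmed5 and Copg2 are the only points under the lower dotted line.

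Transcript length went with the ratio in these libraries. With all measured genes cut into 10 bins of length, the median log2 ratio was 0.11 in the shortest bin and -0.20 in the longest. Across the 61 members Pearson's r between the ratio and the log2 of length was -0.19 and Spearman's rho -0.38, against -0.24 and -0.35 across all genes. Genes are not independent replicates, and all points share the same 2 libraries. The 15 members under 1500 bases had a median of 0.04, the 17 of 1500 to 3000 bases a median of 0.07 and the 29 of 3000 bases or more a median of -0.02, so the members' medians did not descend from class to class. Over all genes the same classes had medians of 0.10, 0.02 and -0.10. Relative to genes of like length, Sec63 moved from -0.19 to 0.01, Sec16a from -0.13 to 0.07 and Sec24a from -0.24 to -0.04. Among short genes higher in CKO, Cope moved from 0.24 to 0.13 and Ssr2 from 0.18 to 0.07. Srp9, at 0.24, and Pdia5, at 0.23, no longer reached 1.2-fold. Copz2 moved from -0.47 to -0.59, Ssr4 from -0.20 to -0.31 and Sec24d from 0.24 to 0.32, so short Copz2 and Ssr4 stood lower, and long Sec24d higher, than their length class. Srp54b, at 1.28, and Copg2, at -0.33, kept most of their difference.

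**Figure D4:**
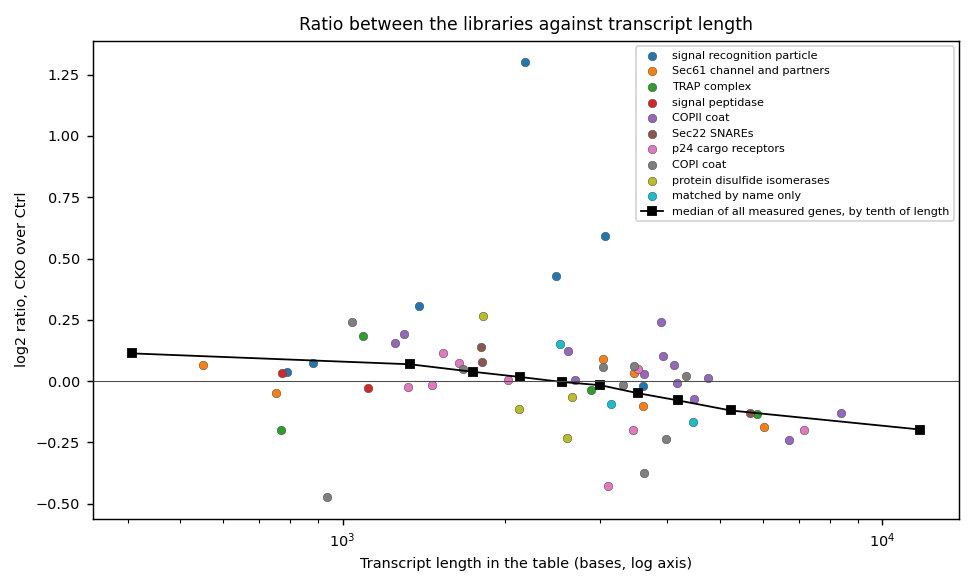
Log2 ratio of CKO over Ctrl against transcript length in bases (log axis) for the 61 measured genes, coloured by role, with the median of all measured genes in each of 10 length bins as black squares at the geometric middle of the bin. The squares descend from 0.11 to -0.20, Srp54b lies far above them, and Copz2 far below.

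Genes of the same route that the symbol pattern did not take lay within 1.2-fold in 88.1% of cases. Of 59 such genes, chaperones, oligosaccharide transferase subunits, cargo receptors and stress sensors among them, 2 were at least 1.2-fold higher in CKO, 5 lower and 0 past 1.5-fold, with a median log2 ratio of -0.02. The higher ones were Ostc, a subunit of the transferase, at 21.37 and 26.12 FPKM, and Creb3l1, a membrane-bound transcription factor of the ER, at 3.97 and 5.21. The lower ones were the fusion gene Bet1, the stress sensor Ern1, the oxidase gene Ero1lb, Tram2 and the cargo receptor gene Lman1, with ratios from -0.46 to -0.29. The main ER chaperone Hspa5 was at 257.43 and 225.2 FPKM, a ratio of -0.19, and the stress transcription factor Xbp1 at 109.93 and 109.31. For comparison, 55 measured Rab genes, which encode GTPases of vesicle traffic, counted 3 past 1.2-fold toward CKO and 7 toward Ctrl, with a median of 0.00. The list of milk and alveolar genes was not limited to proteins carried by this route. Of its 9 measured members, 4 were at least 1.5-fold lower in CKO and 1 higher, against 3.15% and 2.47% of all genes. The summed levels of the list were 1130.43 and 1136.03 FPKM, of which Csn3 made up 867.36 and 861.06 and Plin2 115.81 and 163.89. The part of the milk genes in the values above was not tested.

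A short promoter sequence was more frequent among the members than in the table at large. RefSeq promoters of GRCm38.p6, each from 250 bases before to 50 after a start site, were at hand for 57 members and 13252 genes. They were searched on both strands for GCCACGT, letters found within the known binding sites of XBP1 and CREB3L1. It occurred in 17 of the 57 members (29.8%) and in 4.02% of all genes with a promoter, and in 5.19% of those with a mean of 10 FPKM or more. Among the other genes of the route it occurred in 8 of 48 (16.7%) and among Rab genes in 4 of 54 (7.41%). In 15 of the 17 members the match began no more than 100 bases before the start or lay after it. In Sar1a and Ssr3 it began farther away, at bases -158 and -191 from the start. Of the 17, 5 are shown as examples chosen after their values were seen, from Sec23a and from other COPII and translocon genes. Sec16b, Sec24c, Sec31a, Ssr1 and Ssr3 also held the letters. The 5 examples are printed on the strand that reads GCCACGT, in capitals.

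Sec23a: tgccgcctctGCCACGTcaaaggggag

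Sec24d: ggttgctagtGCCACGTcaggcgcccg

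Sec13: gttttgagctGCCACGTccgaggccgt

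Sec63: tgctgcgcgcGCCACGTctccctcagt

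Sar1a: gacagacgctGCCACGTcttaccccgc

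The capitals lie at chr12:59012003-59012009 for Sec23a, chr3:123267472-123267478 for Sec24d, chr6:113740678-113740684 for Sec13, chr10:42761473-42761479 for Sec63 and chr10:61680127-61680133 for Sar1a. The letters overlap with the E-box CACGTG, which 14% of the members and 10.5% of all genes held, and 2 of the 17 members had both as GCCACGTG. The ratios of members with and without the sequence overlapped. The 15 measured members with it had a median log2 ratio of -0.02, from -0.47 to 0.26, and the 37 without it a median of 0.02.

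The longer ER stress element is CCAAT, then 9 free bases, then CCACG. ATF6 and NF-Y bind it together, and its end can overlap with GCCACGT. Searched on both strands, it was found in 1 member. It lies in the promoter of Pdia6 at chr12:17266491-17266509 and is shown with its fixed bases in capitals.

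Pdia6: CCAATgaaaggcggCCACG

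That is 1.75% of the members, against 14.6% of the other genes of the route and 0.166% of all genes. The other genes of the route were listed by name, with ER chaperones and stress genes among them, so their share is no neutral reference for the members. A match is a description of letters, and a promoter without one says nothing about the factor.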

How the data were processed

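The deposited table gives 1 level per gene and library. The submitters' processing notes name HISAT, Bowtie2, RSEM and mm10, with no versions or roles. The column headers give no unit. The deposited values are FPKM: times length in kilobases they sum to 999609 and 999909, with 2 decimals, and genes without reads are listed at 0.01. Per the deposited values, the log2 fold change equals the log2 ratio of those columns, and the deposited p-value compares the reads of 2 libraries, not conditions.

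From these, log2 ratios were computed after adding 0.5 FPKM, with no further scaling. Reads were estimated as FPKM times kilobases times library totals. The totals were set so that a Poisson-based test gave the deposited p-values of 11690 genes, with a median difference of 0.0678 on the log10 scale. Intervals are 95% Clopper-Pearson and cover counting error only, and the steps were checked on simulated data. Python 3.11.15 and scipy 1.17.1 were used. Matches to the seeds were counted in each gene's longest 3' UTR (GENCODE M21), leaving out UTRs under 30 bases.

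The members, lists and thresholds were chosen with earlier results of these data known. Genes were named by a rule: Sec23a, Sec23b, and in each role the 2 most abundant, the 2 highest and the 2 lowest by ratio, with every member past 1.5-fold. All other genes named, and the promoter sequences searched, were chosen afterwards.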

Additional observations from a re-analysis of the deposited data

How the results depend on the processing

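The medians of all members (0.00 to 0.05) and of each role group moved by less than 0.13, the median half-width of a counting interval, under every alternative run but 1. Counting the Srp54 genes as 1 sum, a choice made after seeing the data, brought the median of the signal recognition particle from 0.19 to 0.055, the members at least 1.5-fold higher from 2 to 1 and those at least 1.2-fold higher from 5 to 3. Members at least 1.5-fold higher were also 1 with a pseudocount of 1 FPKM and 1 with ratios implied by the deposited p-values, where Srp54a was at 0.51. The shares of all genes called so under these 2 settings were 1.95% and 2.54%. Centring within 10 bins of length put 1 member, Copz2, at least 1.5-fold lower, against 0 before, where it called 2.89% of all genes. A match to 6 seed bases in place of 7 raised the members with a match from 18 to 32, or 52.5%, against 53.9% of all genes under that rule. Trimmed-mean scaling shifted ratios by 0.04 toward CKO and, like centring on the median of all genes, gave 7 members at least 1.2-fold higher. These settings called 13.1% and 12.5% of all genes higher by that fold. No named gene past 1.2-fold changed sign. No paired analysis was possible because each group has 1 library, so none could be left out either. Depth limits Pdia5, Sec31b, Sec22c and Tmed8, each under 2 FPKM.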
